A study of Homo sapiens with 15 samples.

Results

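Fragments of ribosomal protein mRNAs were counted in 15 small RNA libraries. The genes were every annotated RPL and RPS gene with a number, with its lettered, X-linked, Y-linked and L-suffixed relatives, together with RPLP0, RPLP1, RPLP2 and RPSA. Pseudogenes, antisense genes and the RPS6K kinase genes were left out. This gave 87 of the 50037 genes in the count table, 53 of the large 60S subunit and 34 of the small 40S subunit. The cells were incubated for 18 h in 3 ways, with 5 libraries each. The first group received lipid hydrolysis products, made from very low-density lipoprotein (VLDL) by lipoprotein lipase (LPL), together with GKT136901 at 20 µM, which inhibits NOX1 and NOX4, enzymes that make reactive oxygen species. The second group received the LPL:VLDL products alone, and the third received VLDL with a preparation that the sample titles call pcDNA, which the labels do not explain. All libraries are labelled as wild-type HEK-293, a line from human embryonic kidney, whereas the series title speaks of macrophages. Each library also carries an experiment number, 2 to 6, and every experiment holds 1 library of each group.

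Every ribosome holds 1 copy of nearly all of these proteins, so cells make them in matched amounts. Most of their mRNAs begin with a C and an uninterrupted run of pyrimidines, the 5′ terminal oligopyrimidine (TOP) tract, through which mTORC1 and the RNA-binding protein LARP1 control their translation. Many of the genes also carry small nucleolar RNAs (snoRNAs), which guide the modification of ribosomal RNA, within their introns. In macrophages as in other cells, ribosomal protein mRNAs are among the most abundant mRNAs. The libraries here were selected for small RNA, so a count on such a gene is read as a piece of its mRNA and not the whole molecule. Where on the exons and on which strand the reads lay was not examined.

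The start sites are shown because the TOP tract is the feature these mRNAs share and the gene set was not chosen on it. Each sequence runs 5′ to 3′ on the gene's own strand, with 10 bases before the annotated start and 20 bases from it on. Where a gene had several annotated starts, the one with the longest pyrimidine run was used. Members had 1.23 annotated starts on average and other protein-coding genes 1.40. Capitals mark the pyrimidine run that opens with C at the start. The first 7 genes are members with many counts or with a role in the results, and the last 3 are paralogs with an L suffix.
RPL34 (chr4:108620566-108620595, plus strand): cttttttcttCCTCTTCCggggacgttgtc
RPLP0 (chr12:120201092-120201121, minus strand): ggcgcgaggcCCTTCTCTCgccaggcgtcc
RPL37A (chr2:216498834-216498863, plus strand): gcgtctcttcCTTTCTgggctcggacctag
RPL41 (chr12:56116623-56116652, plus strand): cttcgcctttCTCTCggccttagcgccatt
RPS3 (chr11:75399508-75399537, plus strand): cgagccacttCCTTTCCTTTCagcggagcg
RPS6 (chr9:19380217-19380246, minus strand): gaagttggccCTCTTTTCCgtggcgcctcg
RPL3 (chr22:39319604-39319633, minus strand): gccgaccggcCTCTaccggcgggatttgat
RPL22L1 (chr3:170870176-170870205, minus strand): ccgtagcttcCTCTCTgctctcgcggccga
RPL7L1 (chr6:42879606-42879635, plus strand): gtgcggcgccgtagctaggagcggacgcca
RPS27L (chr15:63157458-63157487, minus strand): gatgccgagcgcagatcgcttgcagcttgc

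The sequences are from RefSeq on GRCh38.p14. The motif searched on the gene's strand was C at an annotated start followed by at least 4 bases that are each C or T. A promoter sequence was matched for 70 of the 87 genes. The motif stood at a start of 48 of these 70 (68.6%), against 936 of 15706 other protein-coding genes (5.96%). Among the 77 core genes 46 of 62 matched genes had it, and among the 8 L-suffixed paralogs 1 of 6 matched genes did, RPL22L1. RPL34 had a run of 8 pyrimidines, RPLP0 and RPS6 had 9 and RPS3 had 11. RPL3 had a run of 4 in all, 1 short of the motif, and RPL7L1 and RPS27L had none at this position.

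The 87 genes held 13178 counts over the 15 libraries, which is 0.00992% of all counts and 0.906% of the 1.10% that lay on protein-coding genes. Counts on the 87 genes ran from 376 to 1328 per library, in libraries of 5076917 to 9757123 counts. Fragments were detected for 76 of the 87 genes, and 11 were at 0 in every library. Per kilobase of exon, the 87 genes had a median of 60.8 counts, against 0.922 counts for 23123 other protein-coding entries. In 70 of the 87 genes (80.5%) the count per kilobase was above the upper quartile of these other entries, 12.1 counts per kilobase. The other entries include copies of genes on alternate or unplaced scaffolds, listed separately, whereas the 87 genes were taken without their copies. How far this moves the median and quartile was not tested.

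The 3 libraries of experiment 2 stood apart. Protein-coding genes took 1.36% to 1.62% of their counts, against 0.769% to 1.08% in the other 12 libraries. Genes typical of myeloid cells were also highest there, at a summed 82.1 to 125 CPM (counts per 1000000 counts of the library), against 28.0 to 54.0 CPM in the other 12 libraries. In all 15 libraries, 17 of the 18 myeloid genes had counts, 6619 in sum, with AIF1 at 0. Of 18 genes known from HEK-293 cells, 11 had counts, 211 in sum, and NEFM, INA, LHX1, KRT8, KRT18, EPCAM and LIN28B were at 0. Reads that fit several places were not counted, so a 0 in such a list need not mean that the gene is silent. Of 9 blood and liver genes, 7 were at 0 and the list had 8 counts in all. The libraries are therefore called by their labelled treatments only.

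The 32 genes that passed the filter on low counts held 78.8% of the ribosomal protein counts, 21 of the 60S and 11 of the 40S subunit. RPS20 passed with 115 counts in 14 libraries and RPL38, with 179 in 13 libraries, did not. The filter asks for a minimum level, equal to 10 counts in a library of median size, in at least 5 libraries. The 60S genes held 9741 counts, 73.9% of the ribosomal protein counts, and the 40S genes held 3437. A single gene, RPL34, held 13.5% of them, the 5 most abundant genes held 30.7% and the 12 most abundant held 49.4%. Fragment counts were thus very unequal among genes of the same subunit.

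Per kilobase of exon, RPL34, a 60S protein, ranked first with a mean of 10.5 TMM-scaled CPM per kb over the 15 libraries. TMM-scaled CPM is the CPM after edgeR's correction for library composition, and is the scale of all gene values below. RPL41, the smallest ribosomal protein, followed with 5.10 CPM per kb, and RPL8, which lies near the peptidyl transferase centre, with 4.94 CPM per kb. RPLP0, the base of the stalk that recruits translation factors, had 3.26 CPM per kb, and its stalk partner RPLP2 had 2.98 CPM per kb, whereas RPLP1, the third stalk protein, had 1.44 CPM per kb. RPL5 and RPL11, which form a particle with 5S ribosomal RNA and bind MDM2 when ribosome assembly is disturbed, had 2.14 and 1.03 CPM per kb. The values depend on exon length as annotated: RPL37 has 7573 bases of merged exon and 0.264 CPM per kb, although its 286 counts placed it 12th by CPM.

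RPL34 (chromosome 4, bases 108620576 to 108630484, plus strand, 7 merged exons, GRCh38.p14) had 9.21, 9.65, 11.3, 18.5 and 12.5 CPM with GKT136901 in experiments 2 to 6. With LPL:VLDL alone it had 5.91, 10.9, 12.6, 22.3 and 15.6 CPM, and with VLDL 14.1, 12.4, 12.7, 17.2 and 16.1 CPM. The groups overlapped, and the highest value of each group was in experiment 5. RPL8 had 10.0, 2.21, 4.55, 3.31 and 3.55 CPM with GKT136901, 13.4, 5.54, 3.24, 6.68 and 3.62 CPM with LPL:VLDL, and 9.84, 2.75, 4.28, 3.83 and 2.41 CPM with VLDL. For RPL8 the first library of each group, from experiment 2, was above all 12 others.

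**Figure D1:**
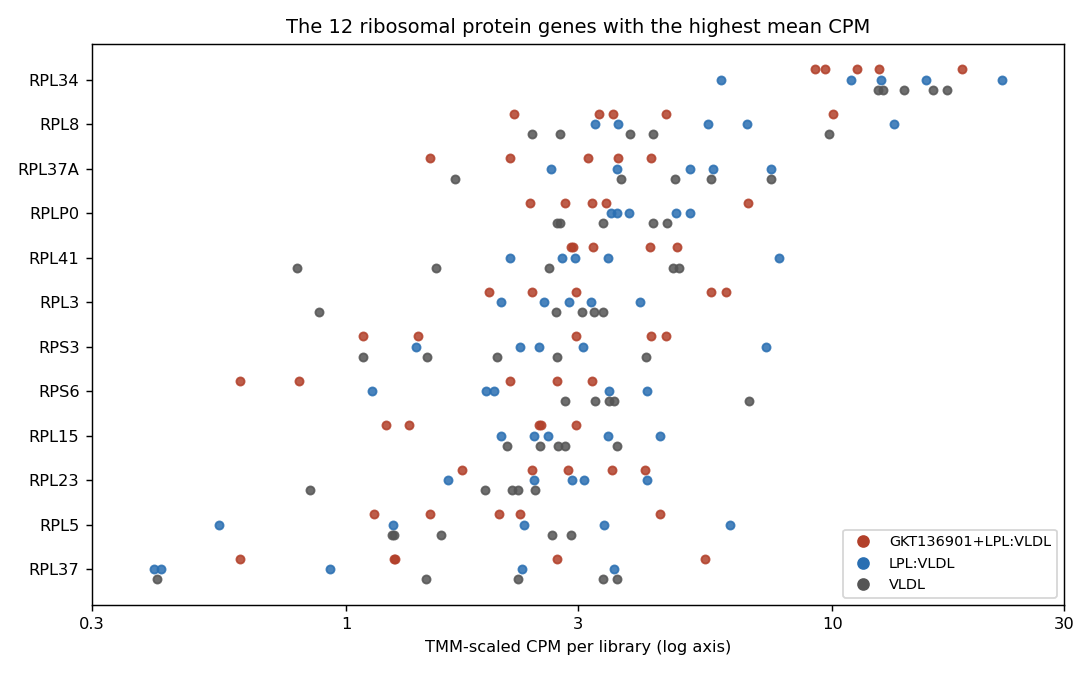
Level of the 12 ribosomal protein genes with the highest mean, as TMM-scaled CPM on a log axis, 1 point per library, coloured by group (5 libraries each). RPL34 lies at 5.91 to 22.3 CPM, mostly to the right of the other genes, and within each gene the 3 groups overlap.

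Most of the 11 genes at 0 have a second copy elsewhere in the genome sequence. In the annotation used for counting, 8 genes have a second copy on an alternate or unplaced scaffold, among them RPS18, RPS3A, RPS25, RPS2, RPL3L, RPL7A and RPS9, with 20 copies among them, and all 8 genes and all copies had 0 counts. Of the 79 genes without such a copy, 3 were at 0, among them RPS28 and RPL36A. The same held outside the family: 1496 of 1652 other coding genes with a scaffold copy were at 0 (90.6%), against 4566 of 18233 without one (25.0%). Reads that fit several places were not counted, so a 0 for these 8 genes is no measure of their expression.

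Overlap with neighbouring genes over a large part of the exon also went with low counts. Exon bases were shared with another gene in 23 of the 87 genes, and reads on shared bases were not counted. In 8 genes over 40% of the exon was shared (RPL24, RPL10, RPS10, RPL27, RPL19, RPL17, RPL38 and RPL36A), and their median was 22 counts with a maximum of 179. The 59 genes with neither a shared exon nor a scaffold copy had a median of 97 counts, and 1 of them was at 0. Genes that shared a smaller part went both ways. RPL15 (7.04% shared) had 349 counts and RPLP1 (15.8%) had 245, whereas RPL32 (19.8%) had 18 and RPS28 (25.4%) had 0. RPS10, RPL17 and RPL36A, which share exons with read-through genes, had 18, 99 and 0 counts, and the read-through genes RPS10-NUDT3, RPL17-C18orf32 and RPL36A-HNRNPH2 had 0. RPL10, a late-joining 60S protein at the peptidyl transferase centre, had 9 counts, so its low value cannot be told apart from the counting rule.

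Near-identical copies are a further limit of the gene values. The table holds 31 annotated ribosomal protein pseudogenes, of which 16 had counts, 182 in all, led by RPL21P28 with 48, RPSAP52 with 26 and RPS14P3 with 24. Reads that fit both a gene and a processed pseudogene were not counted for either. RPL21 (11 counts) and RPSA (20 counts), with 2 annotated pseudogenes each, may be affected, which was not tested. RPL23A and RPL13A, with 6 and 5 of these 31 pseudogenes, had 59 and 99 counts, and RPL39, with 0 of them, had 17 counts. Copies outside these 31 were not looked for, so a gene with 0 here may still have some. RPSA, which is also known as a laminin-binding protein, had 0.158 CPM on average. RPS27A, made as a fusion with ubiquitin, had 97 counts.

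The L-suffixed paralogs were unequal. RPL7L1, a nucleolar relative of RPL7, was the only one that passed the filter, with 211 counts and 0.334 CPM per kb, against 0.675 CPM per kb for RPL7. RPL22L1 had 80 counts and its parent RPL22, mutated in some leukaemias, had 41, whereas per kilobase they had 0.321 and 0.149 CPM per kb. RPL26L1 had 70 counts, RPL36AL 60 and RPS27L, a p53 target, 52. RPL39L and RPL10L, paralogs known from the testis, had 1 count each, and RPL3L, the paralog of striated muscle, is one of the genes with a scaffold copy and had 0.

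Introns of 28 of the 87 genes hold 59 annotated snoRNAs, and these snoRNAs had 13960904 counts (10.5% of all counts in the series), 3620 times the 3857 counts on the exons of their hosts. RPS12 had 130 exon counts and 3549282 counts on its 3 snoRNAs, RPL4 had 56 and 2298595, and RPL13 had 245 and 1303058. RPL37 had 286 exon counts and 1520 snoRNA counts, and RPLP2 had 192 and 380. Over the 24 hosts with counts of both kinds the ratio ran from 1.98 (RPLP2) to 81888 (RPL21). Without genes that have a scaffold copy, 25 hosts had a median of 87.8 counts per kb and 54 other members had 68.0 counts per kb. Only 3 of the snoRNAs touch an exon of their host, and those 3 had 0 counts. They lie wholly within the exon, and reads over several genes were not counted, so that 0 follows from the counting rule.

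**Figure D2:**
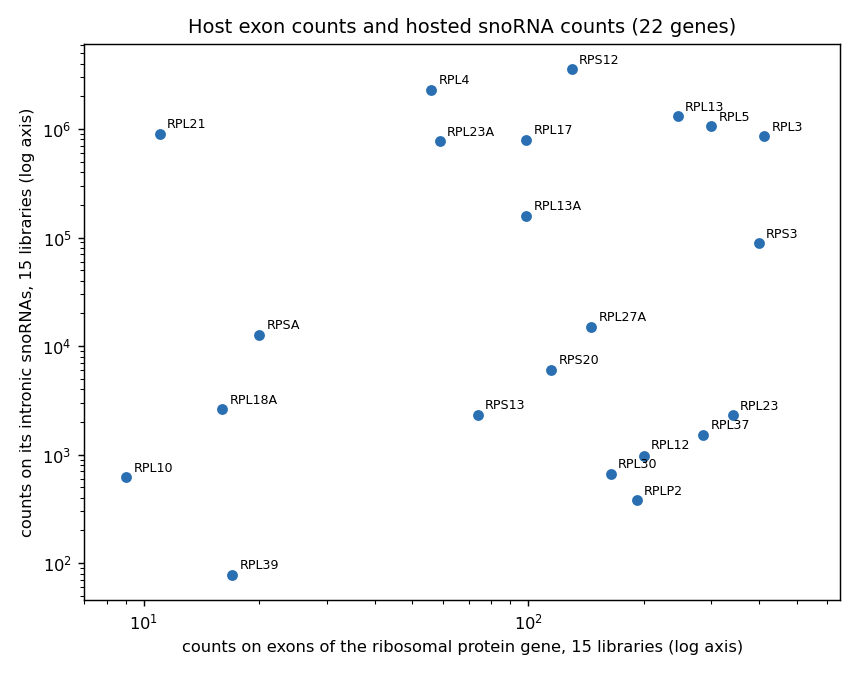
Counts on the exons of 22 ribosomal protein genes (horizontal, log axis) and on the snoRNAs within their introns (vertical, log axis), each summed over 15 libraries. Points are genes; RPS12, RPL4 and RPL13 have 1303058 to 3549282 snoRNA counts with 56 to 245 exon counts, while RPL37 has 1520 and RPLP2 has 380.

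Among snoRNA hosts with a known second role, RPL3, next to the peptidyl transferase centre, had 412 exon counts and 859426 snoRNA counts. RPS3, at the entry of the mRNA channel and also a DNA repair protein, had 398 and 88579. RPL13A, which represses translation of inflammatory mRNAs in human myeloid cells after interferon gamma, had 99 and 158465. RPL7A and its 4 snoRNAs were at 0, and RPL7A is one of the genes with a scaffold copy.

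Summed over the 87 genes, ribosomal protein fragments had 94.6 ± 19.02 CPM of total counts under GKT136901, 97.6 ± 35.6 under LPL:VLDL and 105.6 ± 25.3 under VLDL (SD over 5 libraries). In experiments 2 to 6 the values were 124.5, 74.1, 88.6, 99.6 and 86.3 CPM with GKT136901, 153.9, 62.1, 73.7, 104.5 and 93.8 CPM with LPL:VLDL, and 149.9, 89.1, 93.3, 92.2 and 103.6 CPM with VLDL. The groups overlapped, and experiment 2 gave the highest library of each group. Within experiments, GKT136901 was higher than LPL:VLDL in 2 and lower in 3, GKT136901 was higher than VLDL in 1 and lower in 4, and LPL:VLDL was higher than VLDL in 2 and lower in 3. As these are bulk samples, fewer cells of a type and less RNA per cell cannot be told apart.

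As a share of the counts on protein-coding genes, ribosomal protein fragments made up 0.857% ± 0.0855 with GKT136901, 0.916% ± 0.111 with LPL:VLDL and 0.918% ± 0.0435 with VLDL (SD, n = 5 each). On this scale experiment 2 no longer stood apart, with 0.913% to 0.956% against 0.721% to 1.05% in the other 12 libraries. With GKT136901 the share was lower than with LPL:VLDL in 4 of 5 experiments and lower than with VLDL in 4 of 5. The 60S genes had 70.9 ± 12.9 CPM under GKT136901, 72.3 ± 25.9 under LPL:VLDL and 76.8 ± 21.1 under VLDL, and the 40S genes had 23.7 ± 7.42, 25.3 ± 9.80 and 28.7 ± 5.40 CPM in the same groups (SD, n = 5 each). The differences between groups in the 60S and 40S sums were smaller than the SD of either group. The share of protein-coding counts differed by -0.0614 percentage points (GKT136901 minus VLDL), more than the SD with VLDL and less than the SD with GKT136901. The groups overlapped, and that difference was not tested.

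**Figure D3:**
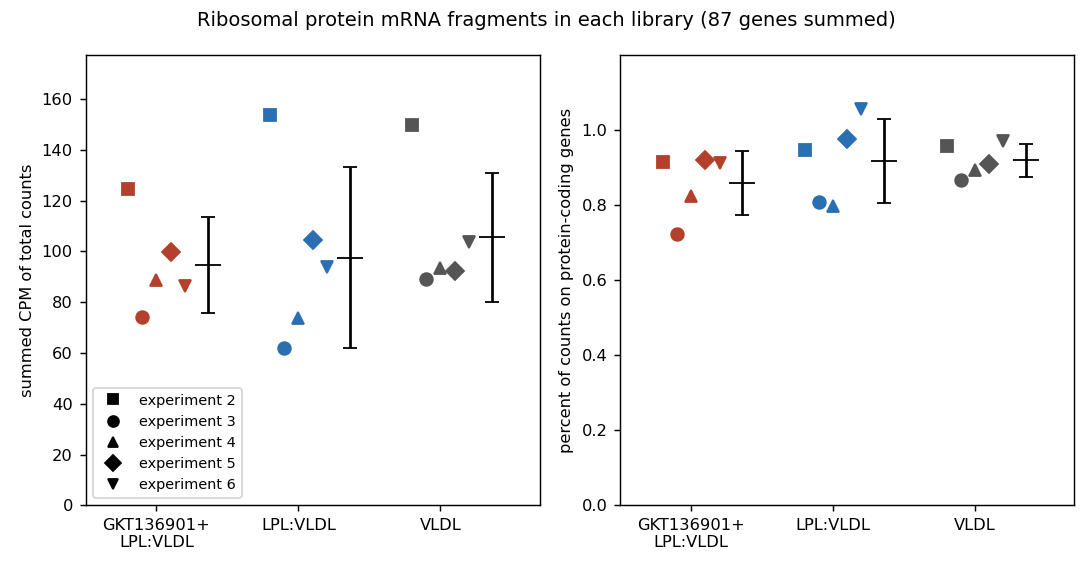
Summed level of the 87 ribosomal protein genes in each library, as CPM of total counts (left) and as percent of counts on protein-coding genes (right). Points are libraries, shapes are experiments, and bars are the mean ± SD of 5 libraries. On the left the 3 squares of experiment 2 (124.5 to 153.9 CPM) lie above every other library, and on the right they lie among the others.

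LPL:VLDL was set against VLDL to ask what the lipid products of LPL do to these fragments. No ribosomal protein gene was called (0 of 32, edgeR's quasi-likelihood test at adjusted p under 0.05), beside a background of 0% of all 4099 genes tested. At an unadjusted p under 0.05 there were 0 of 32, beside 1.88% of all genes, and the groups did not overlap for 0 of 32, beside 0.561%. DESeq2 and limma voom also called 0, with 0 and 1 members at an unadjusted p under 0.05, beside 3.08% and 3.15% of all genes. With the experiment as a block in the edgeR fit, 0 of 32 were called beside 0.0244% of all genes, and 1 of 32 had an unadjusted p under 0.05 beside 4.2%. The median log2 difference of the 32 genes was -0.10, beside 0.01 over all genes, with 15 above 0 and 17 below. With the block it was -0.17, beside -0.001 over all genes, with 12 above 0 and 20 below.

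RPL7L1, the nucleolar paralog, had 1.74, 1.11, 0.463, 2.08 and 1.21 CPM with LPL:VLDL and 2.72, 1.73, 1.15, 2.37 and 2.17 CPM with VLDL. It was lower with LPL:VLDL in 5 of 5 experiments, the groups overlapped, and the log2 difference was -0.61 (SE 0.56, 95% interval -1.75 to 0.54, edgeR adjusted p = 0.999). RPS20, of the head of the small subunit, had 1.13, 0.554, 2.20, 0.985 and 1.88 CPM with LPL:VLDL and 0.615, 0.510, 0.418, 0.451 and 1.33 CPM with VLDL. It was higher with LPL:VLDL in 5 of 5 experiments, the groups overlapped, and the log2 difference was 1.02 (SE 0.82, edgeR adjusted p = 0.999). RPS6, RPLP2 and RPL23 were among the 6 genes of lowest p, with log2 differences of -0.64, -0.73 and 0.55.

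Adding GKT136901 to LPL:VLDL asked whether NOX1 and NOX4 activity bears on the fragments. Again 0 of 32 genes were called, beside 0% of all genes, and 0 of 32 had an unadjusted p under 0.05, beside 2.12% of all genes. The groups did not overlap for 0 of 32, beside 0.488%. DESeq2 and limma voom called 0, with 0 members at an unadjusted p under 0.05 in both, beside 3.12% and 2.90% of all genes. With the experiment as a block, edgeR called 0 of 32 beside 0% of all genes, and 0 of 32 had an unadjusted p under 0.05 beside 3.68%. The median log2 difference was -0.07, beside -0.02 over all genes, with 14 genes above 0 and 18 below.

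RPL37A, a zinc-binding 60S protein, had the lowest p with GKT136901 against LPL:VLDL. It had 4.24, 3.62, 3.14, 1.48 and 2.17 CPM with GKT136901 and 7.47, 2.63, 5.67, 3.61 and 5.10 CPM with LPL:VLDL. It was lower with GKT136901 in 4 of 5 experiments, the groups overlapped, and the log2 difference was -0.75 (SE 0.41, 95% interval -1.59 to 0.10, edgeR adjusted p = 1). RPS20, RPL15 and RPL8 were among the next, with log2 differences of -1.01, -0.49 and -0.45, and RPL3 had 0.38.

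Between GKT136901 with LPL:VLDL and VLDL, 0 of 32 genes were called, beside 0% of all genes, and 1 of 32 had an unadjusted p under 0.05, beside 2.22% of all genes. The groups did not overlap for 0 of 32, beside 0.512%. DESeq2 and limma voom called 0, each with 1 member at an unadjusted p under 0.05, beside 3.12% and 3.85% of all genes. With the experiment as a block, edgeR called 0 of 32 beside 0% of all genes, and 1 of 32, RPS6, had an unadjusted p under 0.05 beside 4.32%. The median log2 difference was -0.09, beside 0.00 over all genes, with 14 genes above 0 and 18 below. With the block it was -0.23, beside -0.02 over all genes, with 9 genes above 0 and 23 below. This comparison shares its libraries with the other 2 and is not independent of them.

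The single gene with an unadjusted p under 0.05 was RPS6, the 40S protein that the S6 kinases phosphorylate downstream of mTORC1. It had 2.17, 0.603, 2.71, 3.20 and 0.800 CPM with GKT136901, 1.13, 1.94, 3.47, 4.16 and 2.01 CPM with LPL:VLDL, and 3.25, 3.46, 3.55, 2.82 and 6.75 CPM with VLDL. GKT136901 was lower than VLDL in 4 of 5 experiments, and the groups overlapped at one library of each. The log2 difference between GKT136901 and VLDL was -1.03 (SE 0.47, 95% interval -1.998 to -0.06, edgeR adjusted p = 0.999), and -1.15 with the experiment as a block (edgeR adjusted p = 0.997). RPL31, near the exit of the peptide tunnel, had 1.24, 0.804, 1.19, 0.799 and 2.06 CPM with GKT136901 and 2.64, 1.53, 1.57, 2.25 and 2.41 CPM with VLDL. In 5 of 5 experiments it was lower with GKT136901, the groups overlapped, and the log2 difference was -0.75 (SE 0.51, edgeR adjusted p = 0.999), and RPL37A, RPL23 and RPL3 had -0.66, 0.60 and 0.53.

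**Figure D4:**
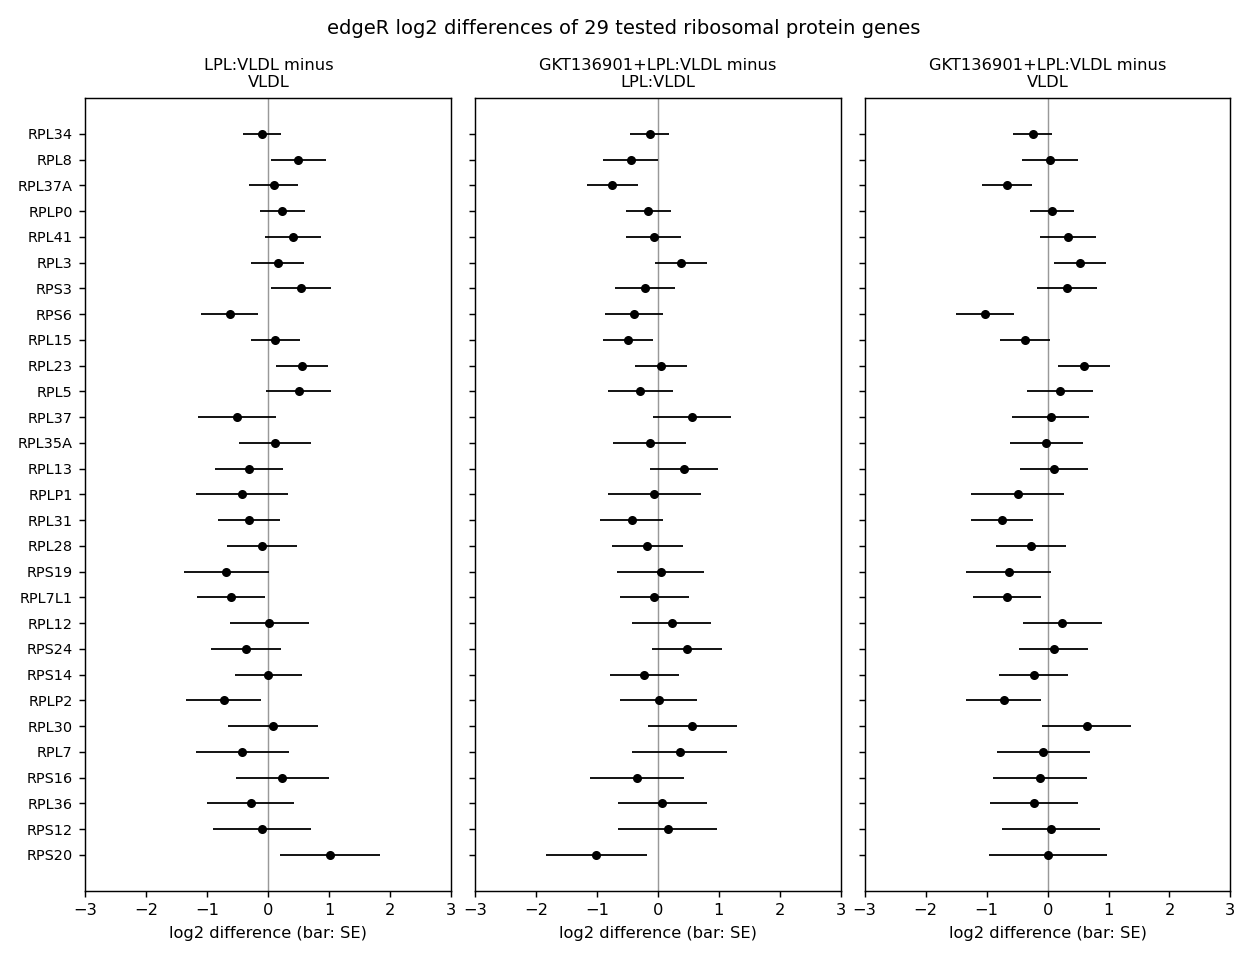
Log2 differences of 29 tested ribosomal protein genes in the 3 comparisons (points, edgeR without a block), with bars of 1 SE, ordered by mean CPM from the top. The differences lie between -1.03 and 1.02, and no gene had an adjusted p under 0.05.

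The intervals show what size of difference these libraries allow in the edgeR fit without a block. The median SE of a log2 difference was 0.57 in each comparison, and the half-width of the 95% interval was 0.64 or more between LPL:VLDL and VLDL. The interval lay within a 2-fold change in either direction for 3 of 32 genes with GKT136901 against LPL:VLDL (RPL23, RPL34 and RPLP0), for 3 with GKT136901 against VLDL (RPL34, RPL8 and RPLP0) and for 4 with LPL:VLDL against VLDL (RPL15, RPL34, RPL37A and RPLP0). It lay within a 4-fold change for 29, 26 and 28 genes in the same 3 comparisons. For RPL34 the log2 difference was -0.14 (95% interval -0.78 to 0.50) with GKT136901 against LPL:VLDL and -0.11 (-0.75 to 0.53) with LPL:VLDL against VLDL. The libraries spread beyond counting error (biological coefficient of variation 0.583 in that fit), and RPL34, with 1779 counts, had an SE of 0.31 in each comparison. With the experiment as a block its SE was 0.204 with LPL:VLDL against VLDL, 0.206 with GKT136901 against LPL:VLDL and 0.204 with GKT136901 against VLDL. The median SE of the members was then 0.58, 0.60 and 0.58 in the same order. Intervals within a 2-fold change were not counted with the block. For most members the interval without a block reached past a 2-fold difference, and the counts of 0 calls do not show that the groups are alike.

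Among the genes described for their roles, RPLP0 had 6.72, 2.81, 2.38, 3.43 and 3.20 CPM with GKT136901, 4.78, 3.60, 3.82, 3.50 and 5.10 CPM with LPL:VLDL, and 4.57, 2.75, 2.72, 4.28 and 3.37 CPM with VLDL. The groups overlapped, and the log2 difference was -0.16 (SE 0.37) with GKT136901 against LPL:VLDL and 0.23 (SE 0.36) with LPL:VLDL against VLDL. RPL5 ranged from 1.14 to 4.42 CPM with GKT136901, from 0.547 to 6.17 CPM with LPL:VLDL and from 1.24 to 2.90 CPM with VLDL. RPS19 and RPS14, whose loss underlies Diamond-Blackfan anaemia and the anaemia of the 5q deletion, had log2 differences of -0.69 (SE 0.70) and 0.00 (SE 0.55) with LPL:VLDL against VLDL. None of these differences passed edgeR's test (adjusted p from 0.999 to 1).

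Some members differed between experiments. Of the 32 genes, 3 were called for the experiment term (9.38%, edgeR at adjusted p under 0.05), beside 11.1% of all 4099 genes and 4.60% of the 3214 protein-coding genes tested. The 3 were RPL8, RPL37 and RPL34, and the share of members lay below that of all genes and above that of protein-coding genes. RPL8 averaged 11.1 CPM in the 3 libraries of experiment 2 and 3.83 CPM in the other 12, a ratio of 2.89, and the 3 libraries were above all others (edgeR F = 9.04, adjusted p = 0.00163).

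RPL37, another zinc-binding 60S protein, had 5.48, 3.56 and 3.60 CPM in the experiment 2 libraries of GKT136901, LPL:VLDL and VLDL, and at most 3.37 CPM elsewhere (edgeR adjusted p = 0.0376). RPL34 went another way: it averaged 19.4 CPM in experiment 5 and 11.9 CPM in the other 12 libraries, whose highest value was 16.1 CPM, and 9.72 CPM in experiment 2 (edgeR adjusted p = 0.0426). RPL41 and RPS3 were among the next and were not called (edgeR adjusted p = 0.115 and 0.212). RPL5 was not called either (edgeR adjusted p = 0.465), with a mean of 0.976 CPM in experiment 5 and 2.64 CPM in the rest.

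All 3 libraries of experiment 2 lay above the other 12 for 4 of the 32 genes, among them RPL37, RPL8 and RPLP1, beside 3.58% of coding genes. The summed myeloid genes and the share of counts on protein-coding genes were high in the same 3 libraries, whereas the summed HEK-293 genes were at 1.04 to 1.55 CPM there and 0.107 to 6.68 CPM in the other 12. Their part in the differences between experiments was not tested. Without experiment 2, 0 of 33 tested members were called for the experiment term, beside 3.76% of all genes and 1.15% of protein-coding genes. In a fit on protein-coding genes alone, added after these values were seen, RPL8 was the 1 member of 33 called (edgeR adjusted p = 0.018), beside 3.44% of the genes in that fit. RPL8 was called in 9 of 10 alternatives, all but the one without experiment 2. RPL37 was not called without experiment 2 or 3, without a filter or on protein-coding genes alone. RPL34 was not called without experiment 2 or 5, without a filter, on protein-coding genes alone or with scaling by library size, where RPS3 was called.

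**Figure D5:**
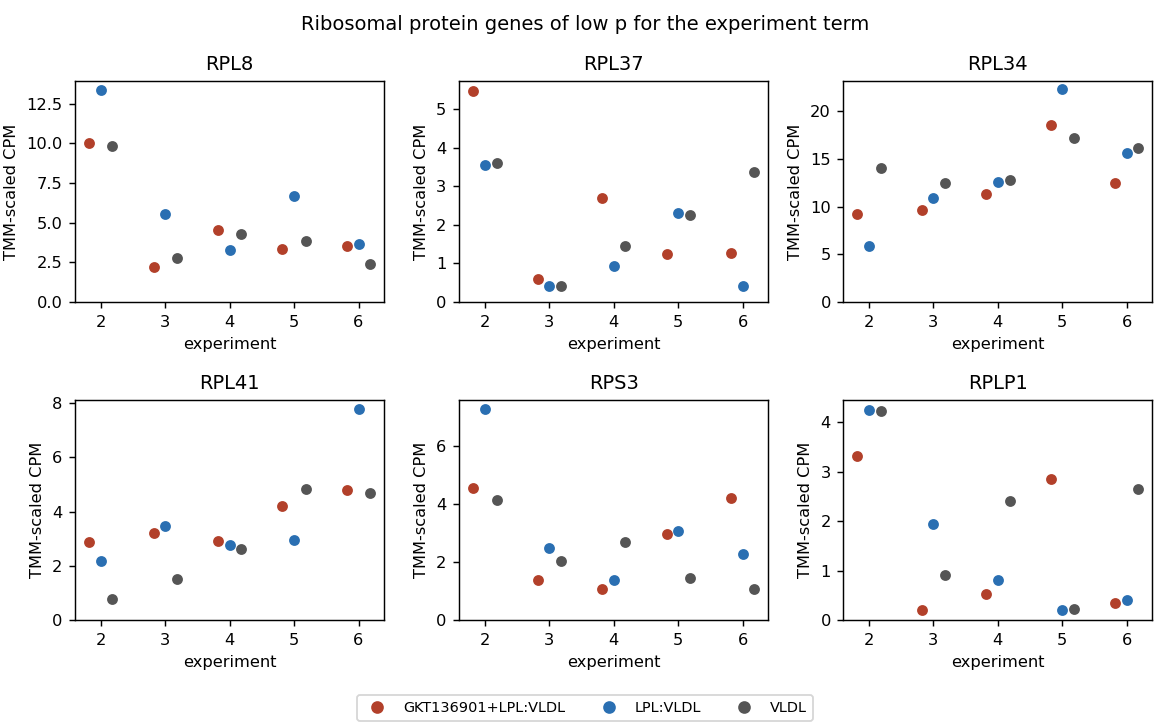
TMM-scaled CPM of 6 ribosomal protein genes of low p for the experiment term, by experiment and group, 1 point per library. RPL8 and RPL37 are highest in all 3 libraries of experiment 2, and RPL34 is highest in all 3 of experiment 5.

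Other genes of the same pathway were read from lists of genes by role. In every list and comparison 0 genes were called by edgeR, with or without the experiment as a block. At an unadjusted p under 0.05 were NOP58 in LPL:VLDL against VLDL and ITGAM, an integrin chain of myeloid cells, in both comparisons of GKT136901, and both are named after their values were seen. Of the ribosomal proteins not named RPL or RPS and RACK1, the scaffold protein of the 40S head, 2 of 3 were tested; RACK1 had 3.74 ± 0.325 CPM with GKT136901 and 2.60 ± 1.13 CPM with LPL:VLDL (SD, n = 5 each), a log2 difference of 0.52 (SE 0.40, edgeR adjusted p = 1). FAU, whose product is cut into the 40S protein eS30, had a log2 difference of 1.51 (SE 0.85, edgeR adjusted p = 0.999) with LPL:VLDL against VLDL.

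Of 14 other mRNAs with a TOP tract 7 were tested, with median log2 differences of -0.04 for GKT136901 against LPL:VLDL, -0.16 for GKT136901 against VLDL and -0.15 for LPL:VLDL against VLDL, and 3, 1 and 2 genes above 0. PABPC1, the poly(A)-binding protein, had 13.1 CPM and EEF2, the translocation factor, 9.43 CPM on average over the 15 libraries. The 14 genes summed to 37.4 ± 13.2 CPM of total counts with GKT136901 and 44.7 ± 18.96 CPM with VLDL (SD, n = 5 each), lower with GKT136901 in 5 of 5 experiments (mean difference -7.31 CPM). The summed myeloid genes were lower in the same 5 of 5 experiments, at 43.2 ± 21.9 CPM with GKT136901 and 56.0 ± 28.7 CPM with VLDL (SD, n = 5 each), and their part in that difference was not tested.

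Of 30 ribosome assembly factors 9 were tested, led by nucleolin (NCL, 3.63 CPM), and the median log2 differences in the same order were 0.08, 0.01 and -0.12. NOP58, a core protein of C/D box snoRNPs, had a log2 difference of -2.07 with LPL:VLDL against VLDL (SE 0.94, edgeR adjusted p = 0.999). Of 15 genes of mTORC1 and TOP control 6 were tested; MYC, which drives ribosome synthesis, had 6.66 CPM, and LARP1 had a log2 difference of -0.87 with GKT136901 against LPL:VLDL (SE 0.46, edgeR adjusted p = 1). The 77 mitochondrial ribosomal proteins, which serve the ribosome of mitochondria and are encoded in the nucleus, had 4074 counts, with 73 detected and 8 tested. Their sum was 33.0 ± 11.6 CPM of total counts with GKT136901 and 28.6 ± 13.0 CPM with LPL:VLDL (SD, n = 5 each), higher with GKT136901 in 5 of 5 experiments, and the 87 cytosolic genes were higher in 2 of 5; the difference between the lists was not tested. The share of counts on protein-coding genes was higher with GKT136901 in 4 of 5, at 1.10% against 1.06% with LPL:VLDL on average, and its part in the sum was not tested. For the 8 tested genes the median log2 difference was 0.15, and 5 of them exceeded 0.

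For the experiment term, edgeR called 2 of 7 TOP mRNAs (VIM and EEF2), 1 of 9 assembly factors (NCL), 0 of 8 mitochondrial ribosomal proteins and 4 of 10 myeloid genes (LAPTM5, SPP1, CSF1R and ITGB2), beside 11.1% of all genes and 4.60% of protein-coding genes.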

How the data were processed

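The deposited table holds raw counts per gene, made per the file headers with featureCounts 2.0.6 over exons grouped by gene, on RefSeq's GRCh38.p14 annotation, without strand, multiply mapped reads or reads over several genes. Trimming and alignment tools named in the submitters' processing notes are fastp 0.24.0 and STAR 2.7.11b, with hg38 as the build. RNA was made into libraries with a NEBNext small RNA kit, per the labels' protocols.

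Genes were kept by filterByExpr (minimum count 10, minimum total 15), which left 4099 genes with 99.664% of the counts. All 15 libraries were fitted in 1 model of group (12 residual degrees of freedom) with TMM factors and edgeR's quasi-likelihood test, two-sided (edgeR 4.0.16, R 4.3.3), adjusted by Benjamini-Hochberg over all genes tested and called at 0.05. The experiment term was tested beside group. The fit was tested on simulated data. RNA classes came from RefSeq biotypes for 49658 gene names, with 0.00315% of counts left without one.

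Replicates 1 to 5 are experiments 2 to 6 in the labels, which pairs the libraries. Libraries of the same experiment deviated together from their group means (15 pairs, r = 0.0853 to 0.424, median 0.131; other pairs, median -0.0811). An alternative edgeR fit took the experiment as a block, with 8 residual degrees of freedom. Others were DESeq2 1.42.0 and limma 3.58.1 (voom), other scalings and filters, and each library or experiment left out. No 2 libraries of a group were alike within sampling noise (chi-square divided by its degrees of freedom ran from 12.1 to 308). The labels do not say whether experiments were separate cultures, so the p-values reflect only how far these libraries spread, part of which may be technical.

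Members, lists and tests were chosen with earlier results of these data known. Named genes are the 12 with the highest mean CPM, the 6 with the lowest p in each comparison and for the experiment term, members chosen by role, and from the other lists those called and the 3 with the highest level. Other genes named, such as NOP58, ITGAM and the examples of snoRNA hosts, shared exons and untested members, were chosen after their values were seen. Levels of the Y-linked members and results of 4 other members are not reported here, though sums and counts of genes include them. Alternatives for the mRNA share were added after the values were seen.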

Additional observations from a re-analysis of the deposited data

Results flagged for a closer look

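In each group of 5 libraries, a library was singled out where its gap to the nearest other library was over 0.71 of the group's whole range (Dixon's 95% limit). Of 63 groups checked 9 were singled out, and chance gives about 1 in 20. With GKT136901, RPLP0 was at 6.72 CPM in experiment 2, against 2.38 to 3.43 CPM in the other 4 libraries. With LPL:VLDL, RPL41 was at 7.78 CPM in experiment 6 (others 2.17 to 3.46 CPM), and RPS3 was at 7.29 CPM in experiment 2 (others 1.39 to 3.07 CPM).

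With VLDL, 4 of the 6 were in experiment 2. There the summed ribosomal protein level was 149.9 CPM of total counts (others 89.1 to 103.6 CPM), RPL8 was at 9.84 CPM (others 2.41 to 4.28 CPM), RPL3 was low at 0.879 CPM (others 2.704 to 3.37 CPM) and RPS19 was low at 0.879 CPM (others 2.41 to 2.59 CPM). In experiment 6, RPS6 was at 6.75 CPM with VLDL (others 2.82 to 3.55 CPM) and RPS20 at 1.33 CPM (others 0.418 to 0.615 CPM).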

How the results depend on the processing

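No member was called in any of the 3 treatment comparisons under the 30 alternatives to each, among them the experiment as a replicate block (0 called in each) and each library or experiment left out (0 called, lowest and highest). With the replicate block, 1 member with LPL:VLDL against VLDL and 1, RPS6, with GKT136901 against VLDL had an unadjusted p under 0.05, beside 4.2% and 4.32% of all genes. Between 21 and 76 members were tested, and 0 to 5 had an unadjusted p under 0.05, beside 1.68% to 8.12% of all genes. The 5 were of 76 members without a filter, beside 6.84% of all genes for GKT136901 against LPL:VLDL and 7.06% for GKT136901 against VLDL. With limma voom and the block, 4 of 32 had such a p for LPL:VLDL against VLDL, beside 8.12%. The median log2 difference of the members lay between -0.25 and 0.06 for LPL:VLDL against VLDL and between -0.25 and 0.08 for GKT136901 against LPL:VLDL. For GKT136901 against VLDL it lay between -0.34 and 0.01. In the comparisons with VLDL it was above 0 only under a changed filter, which tested other sets of members. Without a filter (76 members) it was 0.06 for LPL:VLDL. With a stricter filter (21 members) it was 0.005 for LPL:VLDL and 0.01 for GKT136901. For GKT136901 against LPL:VLDL its sign changed when some single libraries or an experiment were left out. For the experiment term the count of 3 members, beside 11.1% of all genes, became 1 without a filter (1.84% of all genes) and 1 on protein-coding genes alone (3.44%), and ran from 0 to 3 when an experiment was left out (3.76% to 10.5%); the cause was not tested. Counts were too low to test most members, genes with scaffold copies could not be measured, and reads on shared exon bases were left out.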

Other observations

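Without the filter on low counts, 76 members were tested and edgeR again called 0, with the lowest adjusted p at 0.586 for GKT136901 against LPL:VLDL, 0.556 for GKT136901 against VLDL and 0.589 for LPL:VLDL against VLDL. At an unadjusted p under 0.05 with GKT136901 against LPL:VLDL there were 5 of 76 (RPL27, RPL9, RPL27A, RPL32 and RPS15), beside 6.84% of all 21453 genes, so the count is near the background. The 2 described next were chosen after their values were seen. RPL9, a 60S protein, had 0, 0, 0, 4 and 0 counts with GKT136901 in experiments 2 to 6, against 10, 4, 9, 7 and 9 counts with LPL:VLDL and 1, 5, 5, 7 and 0 counts with VLDL. In TMM-scaled CPM its highest GKT136901 library (0.457) was below its lowest LPL:VLDL library (0.554). Both libraries held 4 counts, from totals of 8717475 and 9459840, so this gap rests on the TMM factors (1.008 and 0.765). The share of all unfiltered genes without overlap was not counted. RPL9 was lower with GKT136901 than with LPL:VLDL in 5 of 5 experiments (log2 difference -3.07, SE 1.31, edgeR adjusted p = 0.586). RPL27A, a 60S protein and snoRNA host, had 14, 5, 0, 36 and 32 counts with GKT136901, against 6, 2, 7, 7 and 4 counts with LPL:VLDL and 8, 6, 4, 11 and 4 counts with VLDL. It was higher with GKT136901 than with LPL:VLDL in 4 of 5 experiments, and the difference did not pass adjustment (log2 difference 1.77, SE 0.77, edgeR adjusted p = 0.586).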
